A study of Homo sapiens with 8 samples.

Results

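The 8 genes described here encode the subunits of the cohesin complex and its loader: SMC1A, SMC3, RAD21, STAG1, STAG2, PDS5A, PDS5B and NIPBL. They were chosen by name, and each has a row among the 13471 genes of the gene table. Their RNA was measured by sequencing in hTERT-RPE1, an established epithelial line of the human eye made immortal by telomerase, in 4 groups of 2 libraries. Both interphase groups received 2 mM thymidine for 24 h, a block of DNA synthesis. Both mitotic groups had the same thymidine block, a release of 6 h and an overnight arrest in S-Trityl-L-cysteine (STLC), which blocks the spindle motor Eg5. Within each phase, RNA was sequenced from a group without immunoprecipitation (no IP) and from a group with an IP by an anti-hnRNP U antibody. All libraries were depleted of ribosomal RNA and keep strand. No control-antibody IP is analysed here, and hnRNP U-bound RNA and RNA carried over on beads cannot be told apart. The labels do not say that replicates came from separate cultures, so p-values measure only the spread between these libraries, which may be technical.

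Cohesin is a ring-shaped complex that encircles DNA. SMC1A and SMC3 are ATPases with long coiled coils, and RAD21, the kleisin, closes the ring between them. STAG1 or STAG2 binds the kleisin, PDS5A or PDS5B controls whether the ring is kept on or released, and NIPBL loads it onto chromatin. The complex folds interphase chromatin into loops and holds sister chromatids together from replication until separase cuts the kleisin at anaphase. hnRNP U, also called SAF-A, is an abundant nuclear protein that binds RNA and DNA.

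Across genes, the replicates of each group had a Pearson's r between 0.989 and 0.995 (log2 scale). The number of fragments per library is unknown. Steps of the low values put depth at 0.639 (first mitotic IP) to 1.19 (second mitotic IP) relative to replicate 1 of interphase without IP, from 19 to 45 of 393 low genes. The epithelial keratin genes KRT8 and KRT18 had 18.5 to 79.2 FPKM over the 8 libraries, and TERT had at most 0.359 FPKM. FPKM count fragments relative to transcript length and library size. RPE65, BEST1 and TYR, genes of the differentiated pigment epithelium, and PTPRC, CDH5 and ALB, genes of other cell types, had no row among those used. The mitotic genes CCNB1, PLK1 and CDC20 were higher in mitosis without IP (2.31-fold, 3.46-fold and 3.39-fold), and the histone gene HIST1H3C was at 969 FPKM in interphase and 5.23 FPKM in mitosis.

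All 8 genes are protein-coding, and no other row of the table overlaps their intervals. In GENCODE release 29 (GRCh38), the gene of SMC1A lies on chromosome X (53374149 to 53422728) and that of SMC3 on chromosome 10 (110567691 to 110604636). RAD21 is on chromosome 8 (116845935 to 116874866), and its interval in the file ends 2002 bases beyond the annotated gene. STAG1 is on chromosome 3 (136336233 to 136752403), and STAG2 is on chromosome X (123960212 to 124422664), where the file's interval ends at 124102655. PDS5A is on chromosome 4 (39822863 to 39977956), PDS5B on chromosome 13 (32586427 to 32778019) and NIPBL on chromosome 5 (36876759 to 37066413). At the median their messages are long and poor in G and C, but RAD21 was near the typical length and SMC1A near the typical GC content. The longest annotated transcript ran from 3749 nt for RAD21 to 10435 nt for NIPBL, with a median of 6615.5 nt, against 3767 nt over the 12128 protein-coding genes matched. GC content ran from 36.5% for PDS5B to 47.2% for SMC1A, with a median of 39.8% against 47.6%. The values below are therefore also given with trends in transcript length and GC content removed within each library.

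The levels of the 8 messages differed by more than an order of magnitude. In interphase without IP, RAD21 had the highest level, 50.01 and 52.1 FPKM in the 2 libraries, and PDS5A was next with 32.8 in both. STAG2 (16.4 and 12.6 FPKM), STAG1 (14.6 and 12.6 FPKM) and SMC3 (16.0 and 10.4 FPKM) followed, and these 3 did not differ beyond their spread. PDS5B had 3.83 and 3.82 FPKM. NIPBL (3.42 and 3.34 FPKM) and SMC1A (3.57 and 2.95 FPKM) were lowest and overlapped. SMC1A and SMC3, whose proteins pair in a single ring, differed in message, with a ratio of SMC1A to SMC3 of 0.253 ± 0.0428 (mean ± SD, n = 2). The levels in all libraries are plotted as bars for each gene.

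**Figure D1:**
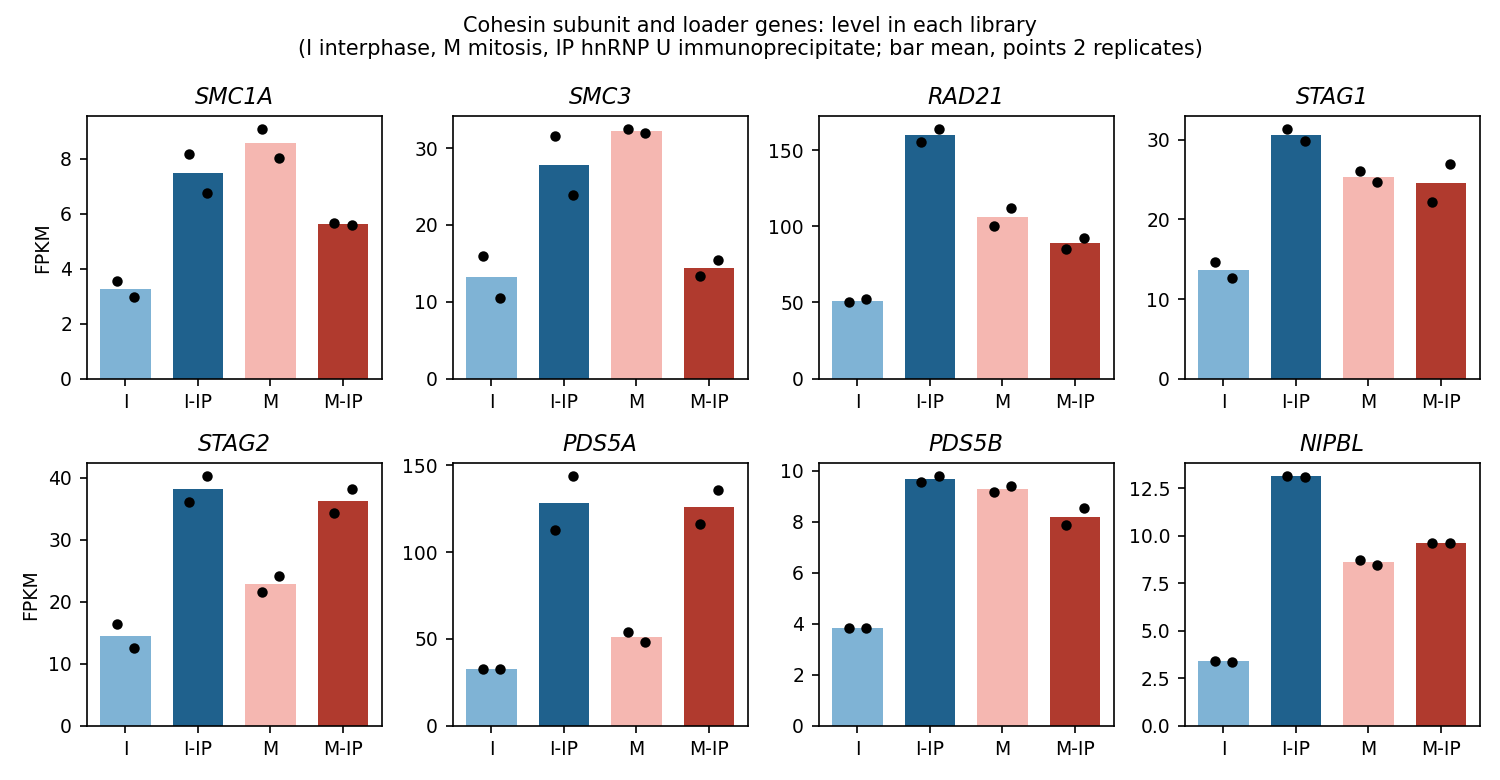
Level of each of the 8 genes in FPKM (vertical axes, from 0) in interphase without IP (I), the interphase IP (I-IP), mitosis without IP (M) and the mitotic IP (M-IP). Bars are means and points the 2 libraries; for each gene the libraries of group I lie below those of groups I-IP and M.

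All 8 genes were higher in mitosis than in interphase without IP. Limma called each of the 8 at an adjusted p below 0.05, and 51.7% of all genes, 26.2% higher and 25.5% lower. The 2 groups of libraries did not overlap for any of the 8; they stood apart for 39.5% of all genes in the higher and 39.4% in the lower direction. The members' median log2 fold change was 1.07, against -0.0023 over all genes. All log2 fold changes here and below are on the log2(FPKM + 1) scale. Values given as -fold, or as times a level, are ratios of mean FPKM. In bulk RNA, the number of cells in a phase and the RNA per cell cannot be told apart.

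Of the ring, SMC1A had 9.09 and 8.03 FPKM in mitosis without IP, and 3.57 and 2.95 FPKM in interphase. Both mitotic libraries were above both interphase libraries, and the log2 fold change was 1.17 (standard error, SE, 0.13; adjusted p 0.000216). SMC3 had 32.5 and 32.0 FPKM in mitosis, above the 16.0 and 10.4 FPKM of interphase. Its log2 fold change of 1.25 (SE 0.19, adjusted p 0.000907) was the largest of the 8, and it was 0.98 and 1.53 in the replicate pairs, because the interphase libraries lay apart. RAD21 went from 51.0 ± 1.45 to 106 ± 8.73 FPKM (mean ± SD, n = 2), with 100.04 and 112 FPKM in the mitotic libraries and a log2 fold change of 1.04 (SE 0.11, adjusted p 0.00015).

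The STAG genes had log2 fold changes below 1. STAG1 had 26.1 and 24.7 FPKM in mitosis, a log2 fold change of 0.86 (SE 0.12, adjusted p 0.000555). STAG2 had 21.6 and 24.2 FPKM in mitosis and 16.4 and 12.6 FPKM in interphase; the groups did not overlap, and the log2 fold change was 0.63 (SE 0.14, adjusted p 0.00474), with 0.38 and 0.89 in the pairs. Of the genes that control release, PDS5A had 54.0 and 47.9 FPKM in mitosis, a log2 fold change of 0.62 (SE 0.14, adjusted p 0.00651), and PDS5B had 9.16 and 9.38 FPKM, a log2 fold change of 1.09 (SE 0.10, adjusted p 8.71e-05). The loader gene NIPBL had 8.74 and 8.45 FPKM in mitosis, a log2 fold change of 1.13 (SE 0.10, adjusted p 6e-05). With length and GC trends removed, all 8 were still called higher, with values from 0.33 for PDS5A to 1.08 for SMC3. PDS5A (adjusted p 0.0483) and STAG2 (adjusted p 0.0356) were nearest the threshold. At this setting 51.8% of all genes were called, 27.0% higher and 24.9% lower.

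Since the 8 messages moved together in RNA level, their promoters were searched for letters of elements known from cell cycle genes. RefSeq (GRCh38.p14) windows of 250 bases before to 50 after a gene start were matched by symbol for 7 of the 8 genes, in 10 windows; RAD21 was not matched. Letters bound by E2F factors, which drive genes of the replication phase, were searched as TTTGGCGC or TTTCCCGC on both strands. They were found in 4 of the 10 windows and 4 of the 7 genes, and in 2.27% of all 35116 windows. No share over all genes was computed, and SMC1A had 2 windows and STAG2 had 3. The stretches that hold the E2F letters are shown 5′ to 3′, with the matching letters in capitals. Those of SMC1A and STAG2 lie inside the annotated genes.
NIPBL, chr5:36876650-36876749, plus strand, match starting 49 bases before the start: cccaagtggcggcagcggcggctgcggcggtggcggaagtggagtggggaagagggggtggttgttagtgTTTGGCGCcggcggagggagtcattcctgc
STAG1, chr3:136752529-136752628, minus strand, match starting 183 bases before the start: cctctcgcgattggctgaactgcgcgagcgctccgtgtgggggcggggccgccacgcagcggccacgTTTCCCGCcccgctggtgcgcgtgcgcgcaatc
SMC1A, chrX:53422656-53422685, minus strand, match starting 20 bases before the second of 2 starts: gcactgcggcgTTTCCCGCgcgggctacct
STAG2, chrX:123961996-123962025, plus strand, match starting 51 bases before the third of 3 starts: tgttggggggtTTTGGCGCcacttttgttt
The CHR element, found in many genes expressed in mitosis, was searched as TTTGAA. It matched in 2 of the 10 windows, those of SMC3 and PDS5B, and in 15.2% of all windows. CCAAT, the box bound by NF-Y, matched in 5 of the 10 windows, those of PDS5A, PDS5B, STAG1 and STAG2 (2 windows), and in 34.6% of all windows. No E2F match overlapped a match of the other motifs. A match describes letters only, and binding was not measured.

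In interphase, all 8 genes were higher in the hnRNP U IP than without IP, by 2.10-fold for SMC3 to 3.91-fold for PDS5A. Limma called all 8 higher, and 74.6% of all genes, 37.6% higher and 37.0% lower. Their median log2 fold change was 1.25, against 0.017 over all genes. The groups did not overlap for any of the 8, nor for 44.5% of all genes in the higher and 42.8% in the lower direction. Leaving the 10 highest genes out of the scaling gave 48.9% of all genes higher and 26.8% lower and moved the median of all genes to 0.31; the 8 stayed called, with a median of 1.74.

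Log2 fold changes of the ring genes ran from 0.99 to 1.63, against 0.99 to 1.93 over all 8. SMC1A had 8.19 and 6.76 FPKM in the interphase IP, a log2 fold change of 0.99 (SE 0.13, adjusted p 0.00014). SMC3 had 31.6 and 23.9 FPKM, a log2 fold change of 1.03 (SE 0.19, adjusted p 0.00105). RAD21 reached 156 and 164 FPKM, the highest level of the 8 in the IP, with a log2 fold change of 1.63 (SE 0.11, adjusted p 2.29e-06) and a level 3.13 times that without IP. The kleisin gene thus had a larger value than either ATPase gene in both replicate pairs, 1.62 and 1.64 against at most 1.13.

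STAG1 had 31.4 and 29.8 FPKM in the interphase IP (log2 fold change 1.12, SE 0.12, adjusted p 2.99e-05), and STAG2 had 36.1 and 40.3 FPKM (1.35, SE 0.14, adjusted p 2.1e-05). PDS5A had 113 and 144 FPKM against 32.8 in both libraries without IP. Its log2 fold change was 1.93 (SE 0.14, adjusted p 3.35e-06), the largest of the 8, above that of 98.3% of all genes. PDS5B, its paralog, had 9.54 and 9.79 FPKM, with a log2 fold change of 1.14 (SE 0.10, adjusted p 1.1e-05). NIPBL had 13.1 FPKM in both IP libraries and 3.42 and 3.34 FPKM without IP, a 3.89-fold difference and a log2 fold change of 1.69 (SE 0.10, adjusted p 1.13e-06).

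With trends in transcript length and GC content removed, limma called 3 of the 8 genes in interphase, and 60.2% of all genes. RAD21 (0.82, SE 0.09, adjusted p 8.93e-05) and PDS5A (0.74, SE 0.12, adjusted p 0.000845) were still higher, and PDS5B was lower, at -0.31 with an adjusted p of 0.0212. NIPBL was at 0.25 (adjusted p 0.0515), SMC1A at 0.20 (adjusted p 0.202), SMC3 at 0.065 (adjusted p 0.799), STAG2 at 0.018 (adjusted p 0.909) and STAG1 at -0.048 (adjusted p 0.75). The 8-gene median was 0.13 after the removal and 1.25 before. Whether length or GC content plays a part in the IP values was not tested.

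In mitosis the IP effects of the 8 genes did not share a direction. PDS5A and STAG2 were higher in the IP, SMC3 and SMC1A were lower, and RAD21, STAG1, PDS5B and NIPBL were not called. Limma called these 4 of 8 in the mitotic IP, and 64.5% of all genes, 32.8% higher and 31.7% lower. In neither direction did the 8 exceed the share of all genes. Leaving the 10 highest genes out of the scaling gave 40.2% of all genes higher and 21.3% lower. Groups stood apart without overlap for 7 of the 8, and for 41.4% of all genes in the higher and 40.1% in the lower direction. The 8-gene median log2 fold change was -0.11, against 0.0053 over all genes.

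SMC3 had 13.4 and 15.5 FPKM in the mitotic IP, both below the 32.5 and 32.0 FPKM without IP. Its log2 fold change was -1.11 (SE 0.19, adjusted p 0.000932), so that the IP held 0.448 times the level without IP. SMC1A had 5.66 and 5.58 FPKM in the IP against 9.09 and 8.03 FPKM, a log2 fold change of -0.53 (SE 0.13, adjusted p 0.00762). This call was lost without the first mitotic library without IP (-0.45, adjusted p 0.057) and with the 10 highest genes left out of the scaling (-0.23, adjusted p 0.191). RAD21 had 85.3 and 92.6 FPKM in the IP and 100.04 and 112 FPKM without it. The groups did not overlap, but its log2 fold change of -0.25 (SE 0.11) had an adjusted p of 0.0761. It was called lower with quantile normalization (-0.41, adjusted p 0.0126).

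PDS5A had 116 and 136 FPKM in the mitotic IP against 54.0 and 47.9 FPKM, a log2 fold change of 1.29 (SE 0.14, adjusted p 6.69e-05). STAG2 had 34.2 and 38.2 FPKM against 21.6 and 24.2 FPKM, with a log2 fold change of 0.64 in each replicate pair (SE 0.14, adjusted p 0.00293). STAG1 had 22.2 and 26.9 FPKM in the IP, which overlapped the 26.1 and 24.7 FPKM without IP (log2 fold change -0.052, SE 0.12, adjusted p 0.728). PDS5B had 7.87 and 8.52 FPKM (-0.16, SE 0.10, adjusted p 0.205), and NIPBL had 9.59 and 9.62 FPKM (0.14, SE 0.10, adjusted p 0.236). The IP effects in both phases are plotted side by side for each gene.

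**Figure D2:**
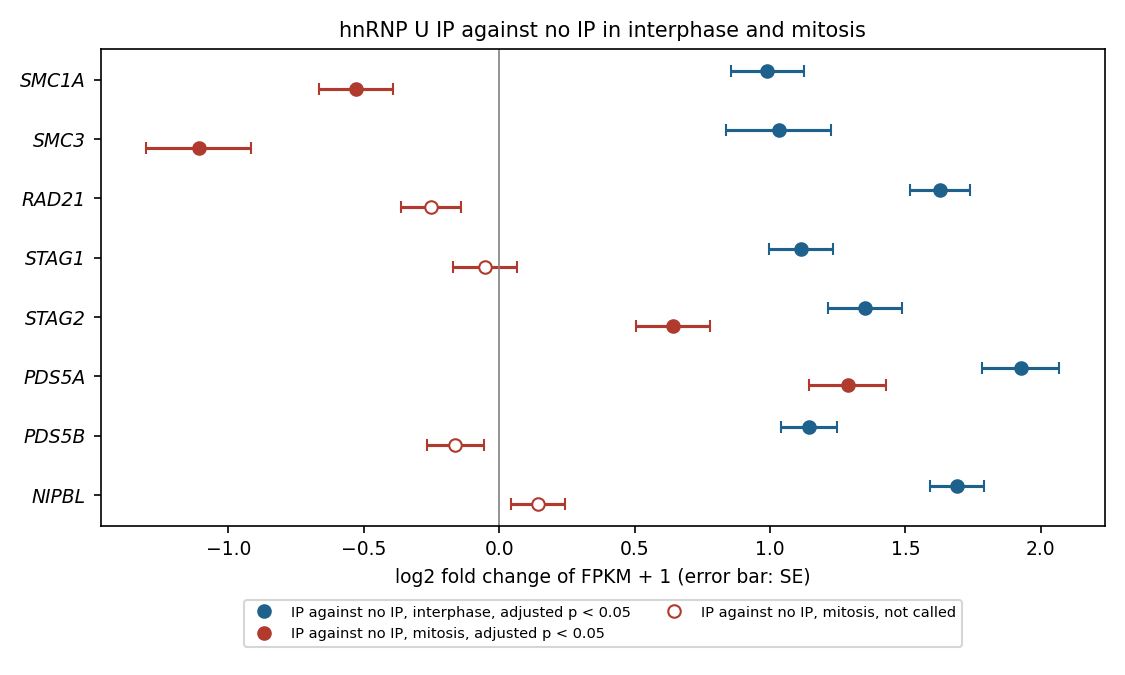
Log2 fold change of the IP against no IP (horizontal axis, with SE bars) for each gene in interphase (blue) and mitosis (red); filled points have an adjusted p below 0.05. Interphase values lie between 0.99 and 1.93, and mitotic values between -1.11 and 1.29, each to the left of the same gene's interphase value.

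Without length and GC trends, PDS5A and most of the others were called in opposite directions in mitosis. PDS5A stayed higher at 0.74 (adjusted p 0.000852). SMC3 (-1.67), PDS5B (-0.91), SMC1A (-0.79), RAD21 (-0.73), STAG1 (-0.62) and NIPBL (-0.54) were called lower, with adjusted p-values from 8.84e-05 to 0.00197. At this setting 61.7% of all genes were called, 29.8% lower and 31.9% higher. STAG2 was at -0.067 with an adjusted p of 0.657. Of the 8, PDS5A and STAG2 were called higher in the IP in both phases before the removal, and PDS5A alone after it.

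**Figure D3:**
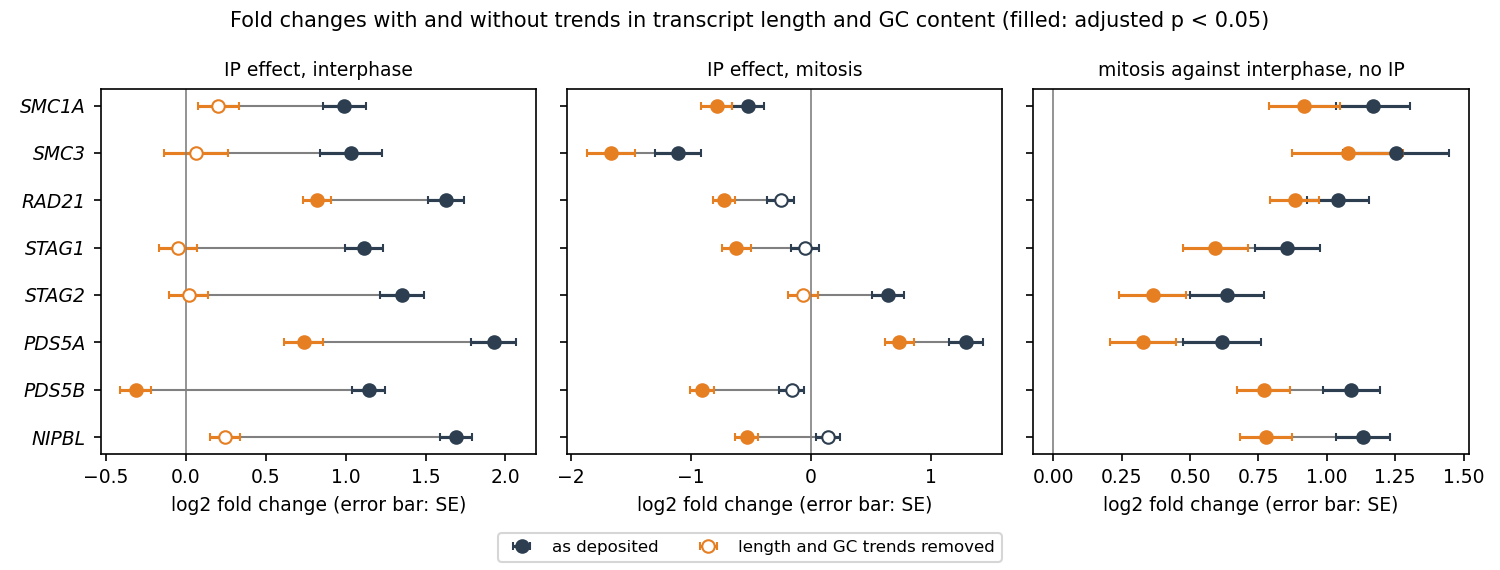
Log2 fold change with SE (horizontal axes) of each gene before (dark) and after (orange) removal of length and GC trends, for the IP in interphase, the IP in mitosis, and mitosis against interphase without IP; filled points have an adjusted p below 0.05. In the first panel 3 of 8 genes are called after the removal, PDS5B among them in the lower direction; in the last all 8 are.

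The difference between phases was tested as an interaction. For all 8 genes the signed log2 fold change of the IP was lower in mitosis than in interphase, and limma called each; it called 47.1% of all genes, 19.9% in that direction and 27.2% in the other. That balance turned to 23.3% and 20.1% with the 10 highest genes left out of the scaling, and to 24.9% and 23.8% with quantile normalization; all 8 members stayed called. The 8-gene median difference was -1.41 on the log2 scale, against 0.065 over all genes. It was most negative for SMC3 (-2.14, SE 0.27, adjusted p 0.000393), RAD21 (-1.88, SE 0.16, adjusted p 7.74e-05), NIPBL (-1.55, SE 0.14, adjusted p 9.51e-05) and SMC1A (-1.52, SE 0.19, adjusted p 0.000365). PDS5B (-1.31, SE 0.15, adjusted p 0.00022) and STAG1 (-1.17, SE 0.17, adjusted p 0.000723) lay between. STAG2 (-0.71, SE 0.19, adjusted p 0.0157) and PDS5A (-0.64, SE 0.20, adjusted p 0.029) had the smallest differences.

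The PDS5A and STAG2 calls for this difference were the least stable. With length and GC trends removed, PDS5A was at -0.0021 (adjusted p 0.993) and STAG2 at -0.085 (adjusted p 0.718). The other 6 were still called, from -0.58 for STAG1 to -1.73 for SMC3. At this setting 43.6% of all genes were called, 16.4% lower and 27.1% higher. PDS5A lost its call without any 1 of 5 libraries, both interphase libraries without IP, the second interphase IP, the first mitotic library without IP and the first mitotic IP, with adjusted p-values from 0.0754 to 0.0974. STAG2 lost its call without any 1 of 3 libraries, the second of each group except the mitotic IP, with adjusted p-values from 0.0523 to 0.0551. The interaction uses the same libraries as the comparisons above, and the mean level without IP was higher in mitosis for each gene.

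In the IP itself, levels in mitosis were at or below those in interphase. Limma called 5 of the 8 genes lower and none higher, also at an unadjusted p below 0.05, and 61.4% of all genes, 25.6% lower and 35.8% higher. With the 10 highest genes left out of the scaling, the split of all genes was 34.1% lower and 24.2% higher, and 6 of the 8 were called lower. Centring on medians called 6 lower, with 31.2% of all genes lower and 30.8% higher. Quantile normalization called 7 lower, with 29.8% of all genes lower and 31.5% higher. A fit of the IP libraries alone called 3 lower, with 23.6% of all genes lower and 33.4% higher. Groups stood apart in the lower direction for 6 of the 8 genes and 34.6% of all genes, and in the higher direction for 44.6% of all genes. The 8-gene median log2 fold change was -0.33, against 0.083 over all genes. SMC3 (-0.89, adjusted p 0.00359) and RAD21 (-0.84, adjusted p 0.000214) fell most: RAD21 had 156 and 164 FPKM in the interphase IP and 85.3 and 92.6 FPKM in the mitotic IP. NIPBL had 9.59 and 9.62 FPKM in the mitotic IP, below the 13.1 FPKM of both interphase IP libraries (-0.41, adjusted p 0.00621). The calls of SMC1A (-0.35, adjusted p 0.0483) and STAG1 (-0.31, adjusted p 0.0476) were at the threshold. Both were lost in a fit of the IP libraries alone, which called 3, and each was lost on leaving out any 1 library except the second interphase IP for SMC1A (adjusted p up to 0.233) and the second mitotic IP for STAG1 (adjusted p up to 0.286). PDS5B was at -0.22 (adjusted p 0.102), and was called lower under each of the 3 other scalings, at -0.32 (centred, adjusted p 0.026), -0.31 (quantile, 0.0266) and -0.49 (without the 10 highest genes, 0.0151). STAG2 was at -0.075 (adjusted p 0.656) and PDS5A was at -0.021 (adjusted p 0.911), with 113 and 144 FPKM in interphase and 116 and 136 FPKM in mitosis. With length and GC trends removed, RAD21 (-0.67) and SMC3 (-0.65) were called lower and PDS5A was called higher, at 0.33 with an adjusted p of 0.0415. At that setting 25.9% of all genes were called lower and 37.4% higher. Quantile normalization instead called PDS5A lower (-0.46, adjusted p 0.0292).

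Ratios between related genes within a library do not depend on the scaling of that library. Trends in transcript length and GC content were not removed from these ratios. The ratio of STAG2 to STAG1 was 1.12 and 0.994 in interphase without IP and 1.15 and 1.35 in the interphase IP. In mitosis it was 0.827 and 0.977 without IP and 1.54 and 1.42 in the IP, so the mitotic groups did not overlap. The ratio of PDS5A to PDS5B was 8.56 and 8.59 in interphase without IP and 11.8 and 14.7 in the interphase IP. In mitosis it was 5.89 and 5.11 without IP and 14.7 and 15.96 in the IP. The ratio of SMC1A to SMC3 was 0.223 and 0.283, and 0.259 and 0.282, in the interphase groups without and with IP. It was 0.279 and 0.251 in mitosis without IP and 0.422 and 0.360 in the mitotic IP. With 2 libraries a group, an exact two-sided permutation test of a single ratio cannot give a p below 0.333.

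**Figure D4:**
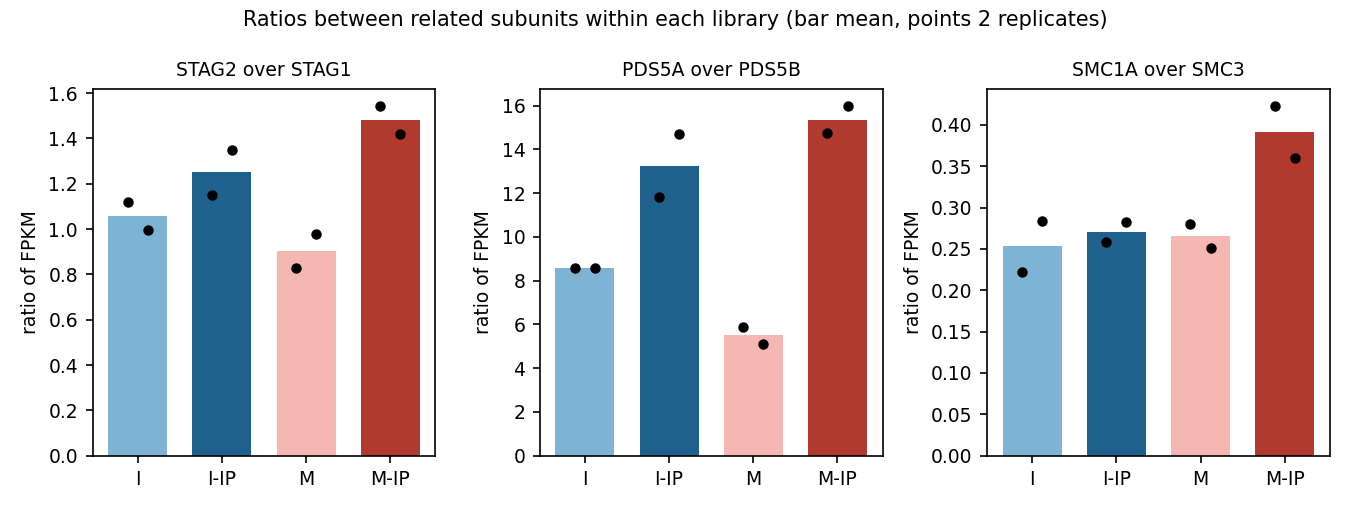
Ratio of FPKM between related genes (vertical axes, from 0) within each library, for the 4 groups I (interphase without IP), I-IP, M (mitosis without IP) and M-IP. Bars are means and points the 2 libraries; for PDS5A over PDS5B both IP groups lie above both groups without IP.

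The wider pathway was described with 18 further genes: the loader partner MAU2, the release factor WAPL, establishment and protection factors, separase, securin, CTCF and meiotic subunits. A 19th, SMC1B, was not analysed here. Without IP, limma called 11 of the 18 higher in mitosis and none lower, also at an unadjusted p below 0.05, with a median log2 fold change of 0.53; of all genes 26.2% were higher and 25.5% lower. The shugoshin genes SGO2 (2.25) and SGO1 (1.97), which protect cohesin at centromeres, and the separase gene ESPL1 (1.80) had the largest values. SGO2 went from 4.40 ± 1.11 to 24.4 ± 1.54 FPKM (mean ± SD, n = 2). MAU2, whose protein works with that of NIPBL, was at 3.51 FPKM in interphase and 3.75 FPKM in mitosis (log2 fold change 0.076, adjusted p 0.591).

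In the interphase IP 6 of the 18 were higher and 7 lower, shares near the 37.6% and 37.0% of all genes, and the median was 0.070. SGO2 (1.67), the acetyltransferase gene ESCO1 (1.55) and WAPL (1.41) had the largest increases. The securin gene PTTG1 (-1.83), CHTF8 (-1.35), part of an alternative clamp loader, and the sororin gene CDCA5 (-0.92) had the largest decreases. MAU2 was lower in the IP, at -0.52 in interphase (adjusted p 0.00202) and -0.39 in mitosis (adjusted p 0.0126), where NIPBL was at 1.69 and 0.14. In the mitotic IP 4 of the 18 were higher and 7 lower, beside 32.8% and 31.7% of all genes. The SMC3 deacetylase gene HDAC8 (1.18), the acetyltransferase gene ESCO2 (0.87) and SGO2 (0.84) were highest, and CHTF18 (-1.23), CTCF (-1.15) and the helicase gene DDX11 (-1.12) lowest. With length and GC trends removed, WAPL (0.26), CDCA5 (-0.13), ESCO2 (0.30) and SGO2 in mitosis (0.14) were no longer called.

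For the difference between phases, 4 genes of the wider list were called higher and 7 lower. Limma called 27.2% of all genes higher and 19.9% lower. The signed difference, mitosis minus interphase, was highest for HDAC8 (1.36), PTTG1 (1.32) and CDCA5 (1.16) and lowest for SGO1 (-2.04), ESCO1 (-1.52) and CTCF (-1.32). PTTG1 was lower in the IP in both phases, at -1.83 and -0.51, and CTCF was at 0.17 in interphase (adjusted p 0.21) and -1.15 in mitosis. CDCA5, whose protein keeps rings closed against WAPL, had 9.47 and 7.78 FPKM in the interphase IP and 52.7 and 52.4 FPKM in the mitotic IP. Its level in the IP rose by a log2 fold change of 2.48, with PTTG1 at 1.93 and SGO2 at 1.42. For mitosis against interphase in the IP, 8 of the 18 were called higher, where 35.8% of all genes were. ESCO1 (-1.64) and CTCF (-0.87) were the 2 of 18 called lower, where 25.6% of all genes were.

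The other SMC ATPase genes, SMC2 and SMC4 of condensin and SMC5 and SMC6 of a repair complex, were set beside SMC1A and SMC3. All 4 were higher in the interphase IP, from 1.47 for SMC6 to 1.95 for SMC5, where 37.6% of all genes were called higher. With length and GC trends removed, SMC2 (0.28, adjusted p 0.104) and SMC6 (0.28, adjusted p 0.105) lost that call. All 4 were higher in mitosis without IP, from 0.53 for SMC6 to 1.95 for SMC4, where 26.2% of all genes were called higher. The SMC6 call was lost with the 10 highest genes left out of the scaling (0.43, adjusted p 0.0919), with length and GC trends removed (0.30, adjusted p 0.0906), and without the second interphase library (0.40, adjusted p 0.113), the first mitotic (0.54, adjusted p 0.0585) or the second mitotic library without IP (0.52, adjusted p 0.0639). All 4 had a lower signed IP effect in mitosis, with differences from -1.05 for SMC4 to -2.22 for SMC2. Limma called 19.9% of all genes in that direction. The SMC4 call was lost without the second interphase (-0.83) or second mitotic library without IP (-0.94). In the mitotic IP, SMC2 was lower (-0.65, adjusted p 0.00173; -0.33 and 0.0878 with the 10 highest genes left out of the scaling) and SMC4 higher (0.74, adjusted p 0.0121). SMC5 (0.17) and SMC6 (-0.34) were not called; without the second mitotic IP, SMC6 was called lower (-0.53, adjusted p 0.0162). With length and GC trends removed, both were called lower, SMC6 at -0.98 (adjusted p 0.000322) and SMC5 at -0.53 (adjusted p 0.00136). With the 10 highest genes left out of the scaling, SMC5 was called higher (0.49, adjusted p 0.00898). SMC4 had 119 and 179 FPKM in the mitotic IP and 80.4 and 93.9 FPKM without IP. Its call was lost with length and GC trends removed (0.076, adjusted p 0.744), and without the first mitotic library without IP (0.63, adjusted p 0.0726) or the second mitotic IP (0.45, adjusted p 0.0803).

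Among 8001 other genes with a mean of at least 5 FPKM, likeness was measured as the root mean square difference, over the 8 libraries, between centred log2 values and the average of the 8 genes. The nearest were SRGAP1 (0.0690), SMARCAD1 (0.0868), C10orf12 (0.110), KIAA1671 (0.114) and WDHD1 (0.118). Of the members, STAG1 was nearest to the average (0.0975), and PDS5A (0.510) and SMC3 (0.434) were farthest. SRGAP1 had means of 3.35 and 10.4 FPKM in interphase without and with IP, and 8.02 and 7.46 FPKM in mitosis.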

How the data were processed

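RNA without IP and hnRNP U IP RNA was measured in interphase and mitotic hTERT-RPE1 cells. Per the file headers, the deposited gene table holds FPKM for each library on hg38, and TopHat and StringTie are named, without role or version, in the submitters' processing notes; how reads shared between genes were treated is not given in the sources used here. The authors' deposited ratio columns are quotients of these FPKM columns, paired by replicate number, and matched them in each row. No ratio is printed from the deposited columns. A second table, of lncRNAs on hg19, was not used here.

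Limma 3.58.1 in R 4.3.3 (eBayes with trend) was fitted to log2(FPKM + 1) of all 13471 genes and 8 libraries, with a coefficient for each of 4 groups, no filter and no block, leaving 4 residual degrees of freedom. P-values were adjusted by Benjamini-Hochberg over all genes in each of 5 comparisons, with a call below 0.05. The fit was tested on simulated data with independent noise, in which few genes were changed, in the interphase IP only. Far more genes were called in the real data, so that test does not bear on the shares called. Genes were matched to GENCODE release 29 for 97.6% of rows. Length and GC trends were removed with splines (5 degrees of freedom each) fitted to each library.

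The members and lists were chosen with earlier results of these data known. All members were named; of the wider list, up to 3 called genes with the largest fold changes in each direction were named. Other settings tried were a pseudocount of 0.1, a filter at 1 FPKM, 3 other scalings, other fits, a block and leaving out each library.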

Additional observations from a re-analysis of the deposited data

Results flagged for a closer look

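The effect of the IP differed between phases by a direct test, limma's interaction, for each of the 8 cohesin genes. That test called 47.1% of all genes, 19.9% lower and 27.2% higher. The log2 differences, mitosis minus interphase, were -1.52 for SMC1A, -2.14 for SMC3, -1.88 for RAD21, -1.17 for STAG1, -0.71 for STAG2, -0.64 for PDS5A, -1.31 for PDS5B and -1.55 for NIPBL. The other SMC ATPase genes had -2.22 for SMC2, -1.05 for SMC4, -1.78 for SMC5 and -1.81 for SMC6. In the wider pathway, HDAC8 (1.36), PTTG1 (1.32) and CDCA5 (1.16) differed upwards and SGO1 (-2.04), ESCO1 (-1.52) and CTCF (-1.32) downwards. With length and GC trends removed, PDS5A, STAG2 and SMC4 no longer passed the threshold; SMC4 was at -0.48 with an adjusted p of 0.179.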

How the results depend on the processing

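The causes of the following shifts were not tested. Removing length and GC trends changed the counts of calls: of the 8 genes it left 3 called in the interphase IP, gave 7 in place of 4 in the mitotic IP and 3 in place of 5 for mitosis against interphase in the IP. Of all genes, 60.2%, 61.7% and 63.2% were called in these 3 comparisons after the removal, against 74.6%, 64.5% and 61.4% before. The removal changed the sign of the IP effect for STAG1 (-0.048) and PDS5B (-0.31) in interphase and for STAG2 (-0.067), NIPBL (-0.54) and SMC5 (-0.53) in mitosis. For mitosis against interphase in the IP it changed STAG1 (0.017), STAG2 (0.28), PDS5A (0.33) and PDS5B (0.17). Rescaling without the 10 highest genes turned the mitotic IP effects of RAD21 (0.080), STAG1 (0.27) and PDS5B (0.14), called NIPBL higher (0.44) and SMC1A no longer lower; it gave 3 members higher and 1 lower, and 40.2% of all genes higher and 21.3% lower. Centring on medians turned STAG1 (0.043). A fit of the IP groups alone called 3 genes for mitosis against interphase in the IP; leaving out each library called 3 to 4 there. Over the same omissions, values ran from -0.19 to 0.082 for STAG1 in the mitotic IP, and in the IP across phases from -0.15 to 0.0021 for STAG2 and from -0.19 to 0.15 for PDS5A. The lone library left in a group was assumed to vary like the others. Same-numbered libraries share only a number in the sample labels (correlations of deviations 0.0883 to 0.528). The deposited ratio columns divide same-numbered libraries, without saying that these share a culture. With the replicate block, 8, 5, 8, 8 and 5 members were called in the 5 comparisons, against 8, 4, 8, 8 and 5. The added call was RAD21 in the mitotic IP (-0.25, adjusted p 0.0449). Calls among all genes also rose with the block, to 77.0%, 67.5%, 51.3%, 56.2% and 64.8% in the same order. Without the block these shares were 74.6%, 64.5%, 47.1%, 51.7% and 61.4%. Depth is known only in relative terms, so no counting interval is given.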
